A study of Mus musculus with 8 samples.

Results

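Imprinted genes are genes of which 1 parental copy is silenced, and 39 of them, from 18 imprinted loci, were followed in the Flow-Seq data of SST neurons of the tuberal nucleus (TN SST neurons). The members were the genes of a written list of imprinted symbols, with no rule on their level or their difference between the sexes. The list was chosen with earlier results of these data known. A gene was analysed where at least 1 of its annotated transcripts was in the deposited values, which was so for 31 of the 39 members among 35968 genes in all, 24952 of which had any count. Of these 31 members, 28 passed the filter on low counts and were tested among 15194 genes. *Snurf*, *Mkrn3* and *Phlda2* did not pass it. The other 8 members, *Meg3*, *Rian*, *Mirg*, *Snhg14*, *H19*, *Airn*, *Kcnq1ot1* and *Peg13*, are noncoding RNAs and were not analysed here, and the same holds for every annotated gene of their classes (0 of 5854 lincRNA, 0 of 2959 antisense, 0 of 790 processed transcript and 0 of 327 sense intronic genes were joined to a deposited value).

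RNA was sequenced from 4 female and 4 male mice, 1 library per mouse. All 8 mice carried the *Sst-Cre* allele Ssttm2.1(cre)Zjh in 1 copy on a C57BL/6J background and had received AAV2-flex-tdTomato, a virus that makes the red protein tdTomato where Cre is present, in the TN. The study's methods describe the injected mice as adult, and their exact age was not given in the sources used here. The females were cycling and the males gonadally intact unless stated otherwise by the study, and the cells were sorted live, nucleated and red, with the Cre of the *Sst* locus setting which cells turn red. The study compares the sexes, and each library held between 7827943 and 17648108 estimated counts.

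In genomic imprinting, methylation set in the egg or the sperm marks a control region, and the genes around it are then expressed from the maternal or the paternal copy alone, or mostly so. The genes lie in clusters that often hold both kinds, along with noncoding RNAs, and several are expressed from 1 copy only in some tissues or from some of their promoters. In the brain, imprinted genes are known for roles in growth, feeding and maternal behavior, and the hypothalamus expresses many of them. Because these mice are inbred, reads from the maternal and the paternal copy cannot be told apart, so that the values are totals over both copies and parental expression was not measured.

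The labelled cell type was checked against its markers. *Sst*, the peptide of these neurons, was at 898 to 1883 TPM, a level scaled to transcript length and library that can be compared between genes, and no neuronal marker was at 0 in any mouse. Markers of other cells were present too. The summed level of 6 microglial markers was 188 to 1103 CPM, which are counts scaled to the normalized library size, in females and 438 to 2102 CPM in males, and the sum of 5 oligodendrocyte markers was 458 to 2071 and 829 to 1817 CPM. In the same unit the sum of 4 SST neuron markers, *Sst* among them, was 987 to 1568 CPM in females and 883 to 1351 CPM in males. The microglial sum was above it in male 2 (2102 against 1094 CPM), male 3 (1225 against 1170) and male 4 (2087 against 883). Sums over different genes are not shares of cells. In a bulk sample fewer cells of a type and less RNA per cell cannot be told apart. The mitochondrial leucyl-tRNA synthetase gene *Lars2* took 9.34% to 34.4% of the counts of a library, and leaving it out moved no imprinted gene past the threshold. Whether all counts given to *Lars2* came from its own message was not tested.

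The imprinted genes ranged from some of the most abundant messages of TN SST neurons to genes at or near 0. Of the 31 members, 17 (54.8%) had a mean level over 100 TPM, beside 6.56% of the 24952 genes with any count, and 11 were at or above rank 808 of all genes. The 31 members are all protein-coding. The genes joined to deposited values hold 21951 protein-coding genes but also pseudogenes, 9940 of them processed, so that these shares are of unlike sets. The members added up to 6213 TPM in the male with the lowest total and 9149 TPM in the female with the highest. That female, female 3, had the lowest share of *Lars2* counts (9.34%). With *Lars2* left out, the members held 1.37% of its counts, and the highest share was 1.52% in male 1. The 21 listed genes of paternal expression had a median of 177 TPM over those analysed (range 0.138 to 936), the 13 of maternal expression a median of 52.6 TPM (range 0.130 to 140), and the 5 whose expression depends on isoform or tissue a median of 107 TPM (range 73.3 to 2552). The paternal median was the value of *Zrsr1*. Of its TPM, 84.8% lay on the processed pseudogene model Zrsr1-202, which held 59.0% of its counts. These levels are descriptions of a chosen list, and no test was made of them.

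**Figure D1:**
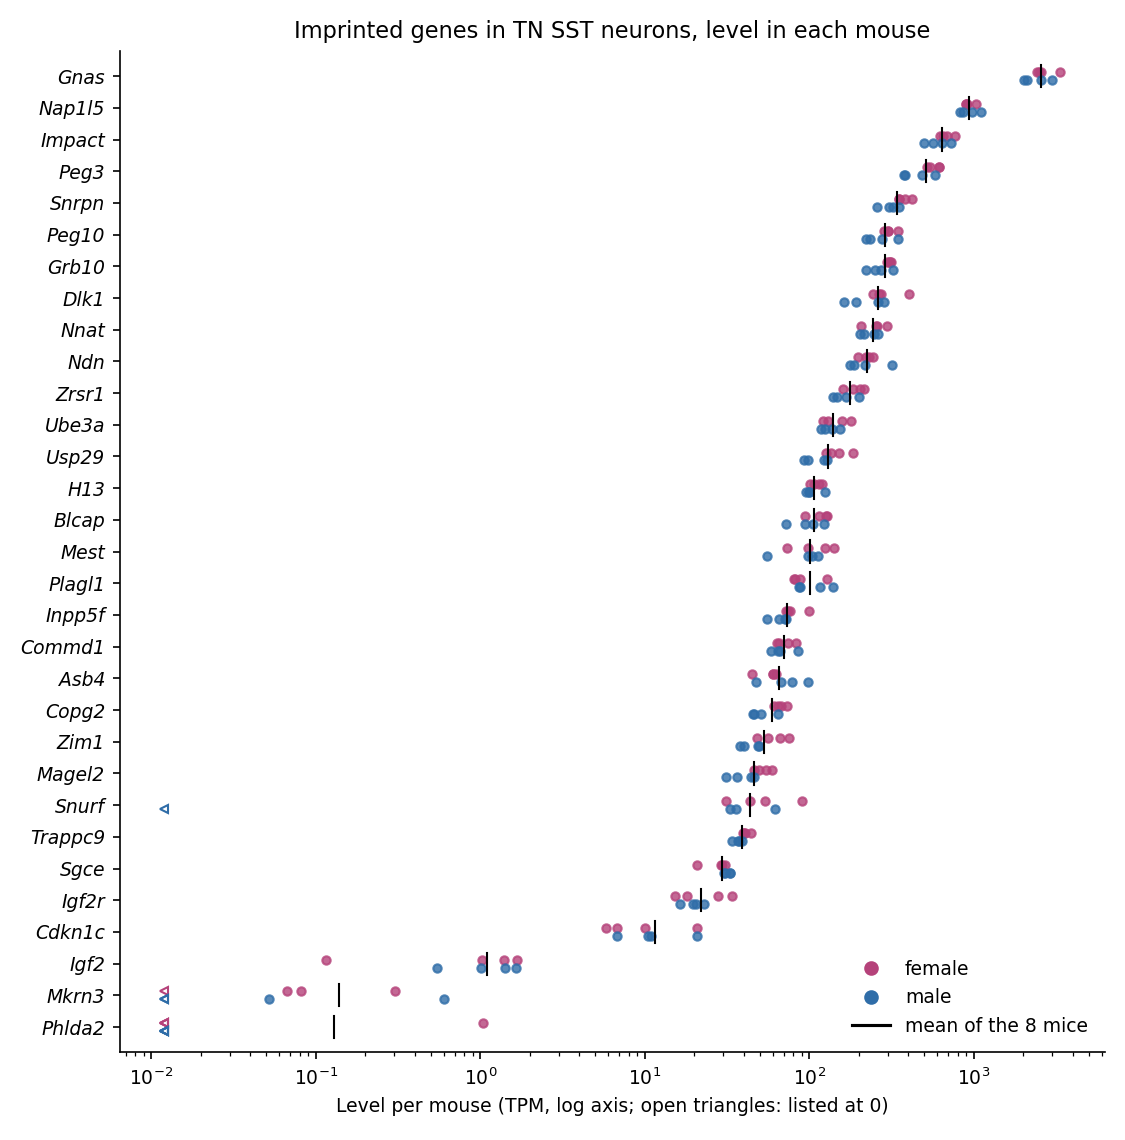
Level of each of the 31 imprinted genes analysed, in TPM on a log axis, with 1 point per mouse (red female, blue male) and a black bar at the mean of the 8 mice. *Gnas* stood at 2552 TPM on average, 17 genes were over 100 TPM, and *Igf2*, *Mkrn3* and *Phlda2* lay at 1.10 TPM or below.

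*Gnas* (ENSMUSG00000027523.19, chr2:174284320-174346744 on the plus strand of GRCm38, the assembly also called mm10), which encodes the alpha subunit of the stimulatory G protein that couples hormone receptors to cyclic AMP, was the highest member, at rank 13 of all genes with any count. Its level was 2409, 2488, 3332 and 2540 TPM in females 1 to 4 and 2989, 2101, 2541 and 2019 TPM in males 1 to 4. Both sexes spanned much of the same range, with female 3 highest and male 4 lowest. Its leading transcript, Gnas-208, shared 78.3% of its stretches of 31 bases with *Gm20721*, a protein-coding model on the opposite strand. *Gm20721* itself held 48 to 220 counts per mouse against 14441 to 50087 for *Gnas*.

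*Nap1l5* (ENSMUSG00000055430.4, chr6:58905233-58907076, minus strand), a paternally expressed gene of the nucleosome assembly protein family that has no intron and lies within *Herc3*, was second with a rank of 58. It was at 912, 1025, 899 and 894 TPM in females and at 1100, 821, 975 and 859 TPM in males. The ranges of *Gnas* and *Nap1l5* over the 8 mice did not overlap, and neither did those of *Nap1l5* and *Impact*. The 250 bases before the *Nap1l5* start in RefSeq (GRCm38.p6, chr6:58907127-58907376, minus strand) are shown because 99.8% of the counts of this gene lie on the transcript that starts 50 bases after them. CpG dinucleotides are in capitals.

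Nap1l5 upstream: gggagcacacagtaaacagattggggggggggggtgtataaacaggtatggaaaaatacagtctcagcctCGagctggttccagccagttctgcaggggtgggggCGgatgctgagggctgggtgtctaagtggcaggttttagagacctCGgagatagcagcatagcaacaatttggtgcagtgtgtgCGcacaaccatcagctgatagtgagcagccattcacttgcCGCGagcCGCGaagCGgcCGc

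This window holds 10 CpG and, on either strand, 1 copy of the 6-base word TGCCGC.

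*Impact* (ENSMUSG00000024423.6), which encodes an inhibitor of the kinase GCN2 and so keeps translation going in neurons, came next at rank 106. It was at 684, 647, 764 and 621 TPM in females and 725, 562, 641 and 498 TPM in males. Of this TPM, 34.2% lay on the retained-intron model Impact-207, which held 16.9% of the counts. The coding model Impact-201 held 70.2% of the counts and 23.9% of the TPM. *Peg3* (ENSMUSG00000002265.16, chr7:6703892-6730431, minus strand), a paternally expressed zinc finger protein known from mouse knockouts for maternal behavior, had 518, 540, 609 and 611 TPM in females and 580, 373, 481 and 380 TPM in males. In both genes males 2 and 4 were below every other mouse. In CPM, which is not scaled to transcript length, their order was the reverse, with *Peg3* at 2140 and *Impact* at 463 on average. *Snrpn*, which encodes the SmN spliceosome protein of neurons in the Prader-Willi/Angelman locus, was at 351, 352, 417 and 380 TPM in females and 349, 259, 323 and 303 TPM in males. Of the stretches of 31 bases in its leading transcript, 34.3% also occur in other genes with deposited values, chiefly *Gm38393*. That gene held 189 to 816 counts per mouse against 2642 to 7980 for *Snrpn*.

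The next in order had nearly equal summed TPM, which for *Grb10* rested largely on 1 noncoding model. Of the *Grb10* TPM, 58.8% lay on the processed transcript Grb10-204, which held 13.1% of its counts. In CPM, which is not scaled to transcript length, *Peg10* averaged 1091 and *Grb10* 225. *Peg10*, a gene derived from a retrotransposon, was at 285, 300, 347 and 299 TPM in females and 343, 234, 275 and 220 TPM in males. *Grb10*, an adaptor that dampens insulin receptor signaling and is expressed from the paternal copy in neurons but the maternal copy in most other tissues, was at 295, 307, 306 and 315 TPM in females and 323, 220, 271 and 251 TPM in males. *Dlk1*, a transmembrane protein related to Notch ligands, was at 265, 271, 404 and 245 TPM in females and 283, 192, 261 and 163 TPM in males. Between *Peg10* and *Grb10* the higher gene changed from mouse to mouse, with *Peg10* above *Grb10* in 4 of 8 mice.

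Along the whole order of 31 members by summed TPM, the ranges of neighbors overlapped in 26 of 30 pairs. The higher gene of a pair was higher in every mouse in only 8 pairs. Apart were *Gnas* from *Nap1l5*, *Nap1l5* from *Impact*, *Trappc9* from *Sgce* and *Cdkn1c* from *Igf2*. Below the first 8, from *Nnat* at 242 TPM to *Mest* and *Plagl1* at 101 TPM, came *Ndn* (224), *Zrsr1* (177), *Ube3a* (140), *Usp29* (130), *H13* (107) and *Blcap* (107 TPM). Some of these sums rested in part on models with a smaller share of the counts. For *Zrsr1*, Zrsr1-202 held 84.8% of the TPM and 59.0% of the counts. For *Mest*, Mest-201 held 41.0% and 7.51%, and for *Ube3a* the processed transcript Ube3a-204 held 28.6% and 5.45%. The lower members still tested were *Inpp5f*, *Commd1*, *Asb4*, *Copg2*, *Zim1*, *Magel2*, *Trappc9*, *Sgce*, *Igf2r* and *Cdkn1c*, from 73.3 down to 11.5 TPM, and *Igf2* at 1.10 TPM.

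The members below the filter had few reads. *Snurf*, the small reading frame at the 5′ end of *Snrpn*, had 0 to 22 counts per mouse, and all of its 186 stretches of 31 bases also occur in *Snrpn*, so that its mean of 43.6 TPM came from few counts on a short model. *Mkrn3*, a ubiquitin ligase known as a brake on puberty, had 0 to 7 counts per mouse. *Phlda2*, a growth-restraining gene of placenta, had 1 count in 1 mouse and was at 0 in the others. A count of 3, taken as the limit of detection, corresponds to 0.148 to 0.458 CPM. *Igf2*, the fetal insulin-like growth factor, passed the filter with 5 to 45 counts, and 97.0% of the stretches of its leading transcript are shared with *Gm49394*, which was at 0 in all 8 mice.

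The libraries were made to ask whether these neurons can react to estrogens or to signals from fat, and the groups they hold are the sexes, which were compared here over the 28 members tested. None reached an adjusted p under 0.05 in edgeR's quasi-likelihood test, where 0.158% of all genes tested did (24 of 15194). At an unadjusted p under 0.05 there were 7 members of 28 (25%), all higher in females, beside 20.5% of all genes in either direction and 9.86% in that direction. With DESeq2, 2 of 27 members with an adjusted p were called, *Usp29* (adjusted p = 0.0265) and *Mest* (adjusted p = 0.0365), where 7.35% of all genes were called, and 3.99% of all genes were called as higher in females. The mice differ between the groups only by sex as far as the labels say, and 1 library was made per mouse.

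The size of the differences was small. All 28 members had a log2 fold change under 0.5 in size, and its median size was 0.17 over the members and 0.22 over all genes. The members' median level was 125 CPM, beside 19.8 CPM over all genes tested, and the part of level in this gap was not tested. For the 26 members over 10 CPM, every approximate 95% interval (SE with 6 degrees of freedom) lay within 1 log2 unit of 0, from -0.88 to 0.86, and 14 lay within 0.5. A 2-fold difference in either direction was thus outside the interval of each of these 26 genes. *Cdkn1c*, with 26 to 147 counts, and *Igf2* were too shallow for such a bound, with intervals of -1.25 to 0.64 and -1.90 to 1.78.

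By sign, 19 of 28 members were higher in females, beside 49.4% of all genes. The median log2 fold change was 0.12 over the members and -0.00 over all genes. With the mean of the neuronal markers as a covariate 10 of 28 were higher in females, with a median of -0.08. The sum of these markers did not itself overlap between the sexes, so that this fit cannot separate sex from marker level. Split by parental copy, 10 of 15 paternally expressed members (median 0.11), 5 of 8 maternally expressed members (median 0.11) and 4 of 5 members that depend on isoform or tissue (median 0.14) were higher in females. The 3 classes thus had nearly the same median. Of the 28 members, 13 kept their sign under all alternatives and 15 changed it in at least 1.

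**Figure D2:**
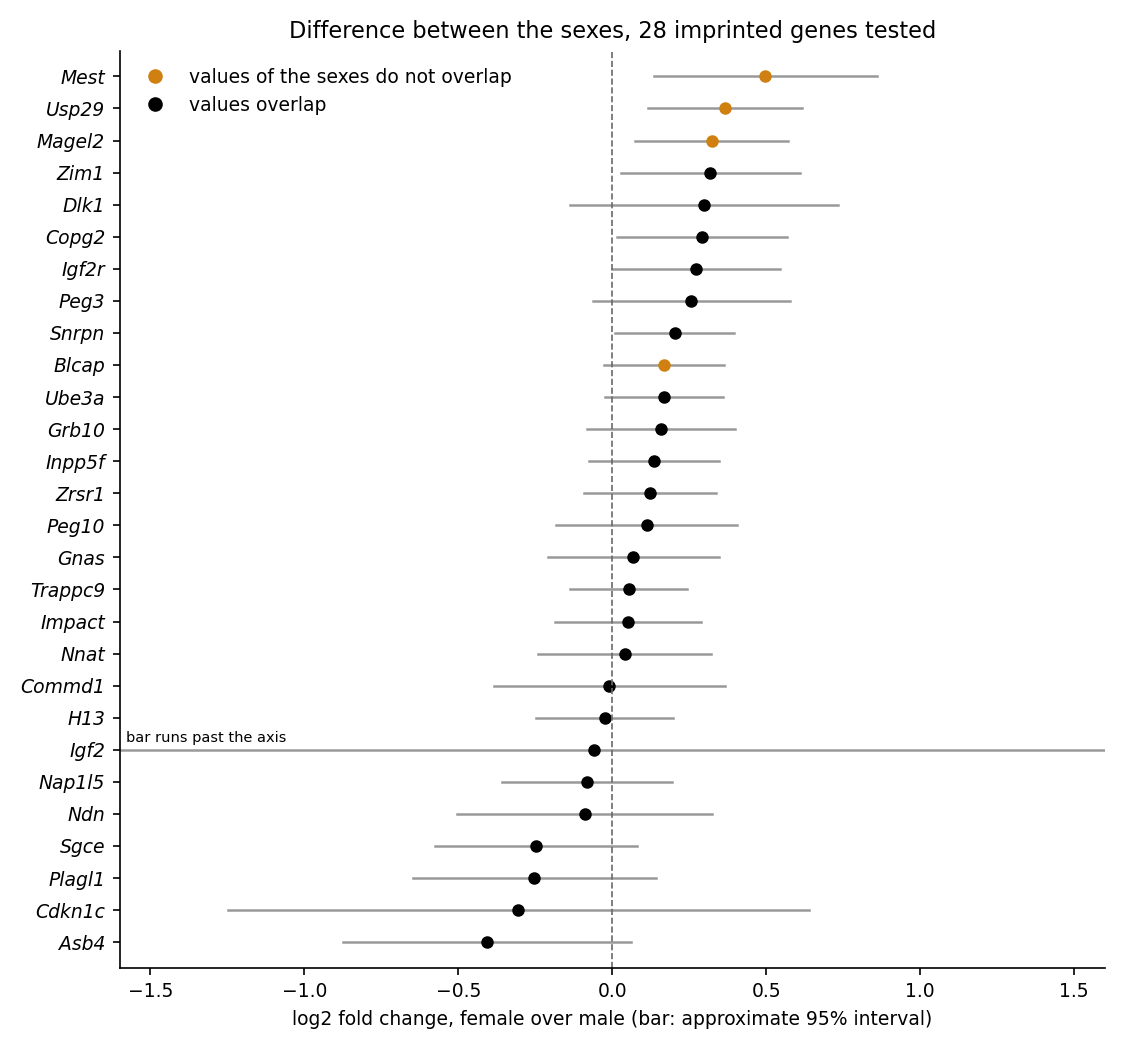
Log2 fold change of females over males for the 28 imprinted genes tested, with approximate 95% intervals as bars and orange points where the 4 females and 4 males did not overlap in CPM. *Mest* was highest at 0.50 and *Asb4* lowest at -0.41; none passed the threshold, and the bar of *Igf2* runs past the axis.

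In 4 of 28 members (14.3%) the values of the sexes did not overlap, all higher in females, beside 10.4% of all genes and 6.48% for that direction. For 4 mice against 4, an exact test cannot go below p = 0.0286. The members were *Usp29*, *Mest*, *Magel2* and *Blcap*, each from another locus. In TPM the sexes overlapped in all 4 of these, and were apart instead in *Snrpn* and *Trappc9* (2 of 28, 7.14%, beside 8.30% of all genes tested).

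*Usp29* (ENSMUSG00000051527.11, chr7:6730578-6967219, plus strand), a ubiquitin-specific protease gene that shares its start region with *Peg3*, had the smallest adjusted p. It was at 322, 356, 392 and 364 CPM in females and at 322, 253, 291 and 246 CPM in males. The lowest female and the highest male, male 1, differed by 0.111 CPM, and the other males lay below 300 CPM. The log2 fold change was 0.37 ± 0.10 (SE, n = 4 per sex; adjusted p = 0.122 in edgeR). Without male 1 the adjusted p was 0.0484, the only call of a member that leaving out a mouse made. Of the stretches of 31 bases in its leading transcript, 34.7% also occur in annotated genes that were not analysed here, mainly *Zim3* on the opposite strand.

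The *Peg3* and *Usp29* starts point away from each other across 146 bases (chr7:6730432-6730577, plus strand, RefSeq sequence of GRCm38.p6). The stretch is shown because the highest member of the domain and the member with the smallest p both start at its ends, with CpG in capitals.

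between Peg3 and Usp29: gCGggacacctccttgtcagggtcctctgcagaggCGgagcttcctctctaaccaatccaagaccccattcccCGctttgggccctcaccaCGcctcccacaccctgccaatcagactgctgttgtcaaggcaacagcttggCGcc

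It holds 5 CpG and no TGCCGC. *Peg3*, at its other end, was at 2204, 2444, 2201 and 2471 CPM in females and 2462, 1688, 2011 and 1641 CPM in males. Its log2 fold change was 0.26 ± 0.13 (SE; adjusted p = 0.297). Male 1 reached the females here, and the other males did not. *Zim1*, the maternally expressed zinc finger gene beyond *Peg3*, had 0.32 ± 0.12 (adjusted p = 0.195). All 3 genes of the domain were thus higher in females by 0.26 to 0.37, none past the threshold. With the mean of the neuronal markers as a covariate the values were 0.03 for *Usp29*, -0.12 for *Peg3* and -0.02 for *Zim1*. That fit cannot separate sex from marker level.

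*Mest* (ENSMUSG00000051855.15, chr6:30723547-30748465, plus strand), a paternally expressed gene of the alpha/beta hydrolase fold known from embryonic mesoderm and expanding fat, showed the largest fold change of the members. It was at 68.0, 75.9, 74.5 and 103 CPM in females and at 64.3, 52.2, 62.6 and 48.1 CPM in males. Female 4 stood above the other females, and the sexes were 3.72 CPM apart at their nearest. The log2 fold change was 0.50 ± 0.15 (SE; adjusted p = 0.135). The 250 bases before its RefSeq start (GRCm38.p6, chr6:30737800-30738049, plus strand) are shown because 86.1% of the *Mest* counts lay on transcripts that start directly after them; CpG are in capitals.

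Mest upstream: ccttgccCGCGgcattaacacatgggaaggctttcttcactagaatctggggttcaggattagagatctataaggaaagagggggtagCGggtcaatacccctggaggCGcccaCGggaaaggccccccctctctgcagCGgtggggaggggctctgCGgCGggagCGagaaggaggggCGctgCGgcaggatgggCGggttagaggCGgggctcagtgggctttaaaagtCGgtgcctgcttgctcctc

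The window holds 14 CpG and, on either strand, 2 copies of TGCCGC. *Copg2*, the coatomer subunit gene that faces *Mest* from the other side, had a log2 fold change of 0.29 ± 0.11 (SE; adjusted p = 0.203). The 2 genes overlap tail to tail in 912 exon bases, and 34.7% of the leading *Mest* transcript's stretches also occur in *Copg2*, so that reads of one may be counted for the other; whether the counting used strand was not given in the sources used here.

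*Magel2* (ENSMUSG00000056972.6, chr7:62377010-62381640, plus strand), a MAGE family gene that sorts membrane proteins in hypothalamic neurons and is lost in Prader-Willi and Schaaf-Yang syndromes, was at 130, 126, 137 and 138 CPM in females and at 121, 88.2, 115 and 101 CPM in males. The females lay close together and the males spread below them. The log2 fold change was 0.32 ± 0.10 (SE; adjusted p = 0.148). Its neighbor *Ndn*, a related MAGE gene with neuronal functions, had -0.09 ± 0.17 (adjusted p = 0.798), and male 1 was highest of all mice. In the rest of this locus, *Snrpn* had 0.20 ± 0.08 (adjusted p = 0.207) and *Ube3a*, the maternally expressed ubiquitin ligase of Angelman syndrome, 0.17 ± 0.08 (adjusted p = 0.260). Of the *Ube3a* leading transcript, 29.2% is shared with annotated genes on the other strand or elsewhere, chiefly *Snhg14*.

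*Blcap* (ENSMUSG00000067787.10, chr2:157556362-157571274, minus strand), named after bladder cancer and host to *Nnat* in its intron, was at 86.8, 92.1, 88.3 and 86.6 CPM in females and at 81.3, 70.02, 85.3 and 77.8 CPM in males. Female 4 and male 3, the nearest mice of the sexes, were 1.29 CPM apart, and the log2 fold change was 0.17 ± 0.08 (SE; adjusted p = 0.260). *Nnat*, neuronatin, a small membrane protein of the endoplasmic reticulum, had 0.04 ± 0.11 (adjusted p = 0.868).

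**Figure D3:**
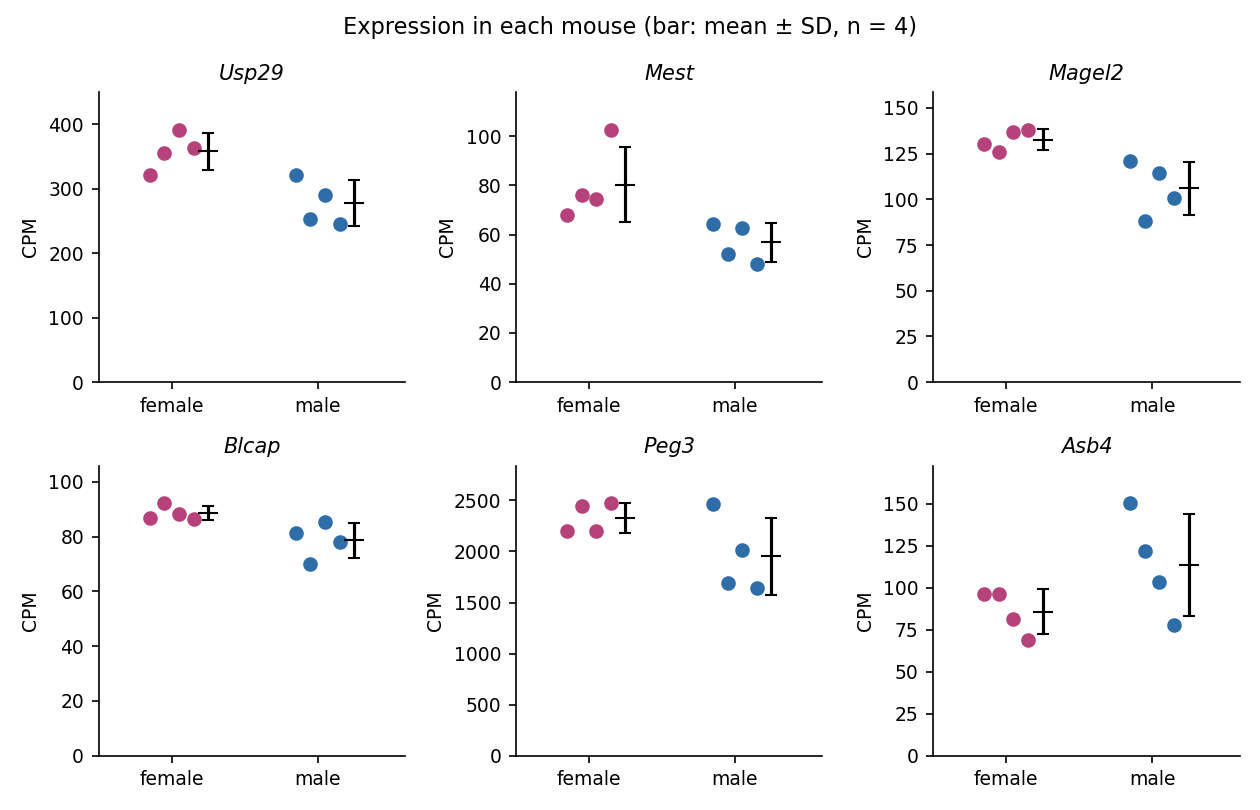
CPM per mouse for the 4 members whose sexes did not overlap (*Usp29*, *Mest*, *Magel2*, *Blcap*) and for *Peg3* and *Asb4*, with each point 1 mouse and the black bar the mean ± SD of 4. In *Usp29* the lowest female and male 1 lie at 322 CPM, and in *Asb4* the males reach 150 CPM.

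On the other side, 9 members had lower values in females. The largest of these differences was in *Asb4*, an ankyrin repeat and SOCS box protein found in hypothalamic neurons, with a log2 fold change of -0.41 ± 0.19 (SE; adjusted p = 0.262) and the sexes overlapping. *Cdkn1c*, an inhibitor of cyclin-dependent kinases, had -0.31 ± 0.39, *Plagl1*, a zinc finger regulator of the imprinted network, -0.25 ± 0.16, and *Sgce*, the epsilon-sarcoglycan gene mutated in myoclonus dystonia, -0.25 ± 0.13. Their adjusted p ranged up to 0.684. The other 5, *Ndn*, *Nap1l5*, *Igf2*, *H13* and *Commd1*, lay between -0.09 and -0.01.

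The sum of 8 neuronal markers was 2673 to 3197 CPM in females and 2069 to 2631 CPM in males, which did not overlap (2-sided exact permutation test p = 0.0286), and all 8 genes had higher means in females, 4 of them without overlap (beside 10.4% of all genes), of which edgeR called 0 (4 at an unadjusted p under 0.05) and DESeq2 those 4 (beside 7.35%). The summed markers of other cells overlapped between the sexes, and none passed the exact permutation test, with p = 0.0857 for microglia, p = 0.114 for astrocytes and p = 0.314 for oligodendrocytes. By sign, 6 of 6 microglial genes, 5 of 5 astrocyte genes and 5 of 5 oligodendrocyte genes had lower fitted values in females, and edgeR and DESeq2 called 0 genes of these lists (4, 1 and 1 at an unadjusted p under 0.05 in edgeR, beside 20.5% of all genes). With the mean of the neuronal markers as a covariate, *Usp29* had a log2 fold change of 0.03, *Magel2* 0.05, *Blcap* 0.04 and *Mest* 0.21. With the microglial mean they had 0.18, 0.21, 0.12 and 0.39. In these fits 0 of 28 members were called, and 3 and 13 of all genes. Because the neuronal sum did not overlap between the sexes, the fit with the neuronal mean cannot separate sex from marker level.

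The order of the mice was alike over many members. Their summed level was 7572, 7718, 9149 and 7952 TPM in females 1 to 4. In males 1 to 4 it was 8769, 6305, 7591 and 6213 TPM. By TPM, males 2 and 4 lay below every other mouse and male 1 among the females. *Lars2* took unlike shares of the libraries, and without it the order changed in part. The members then made up 1.33%, 1.42%, 1.37% and 1.36% for females 1 to 4. For males 1 to 4 the values were 1.52%, 1.14%, 1.31% and 1.10%. Males 2 and 4 were again lowest, but male 1 was above every female. Male 4 had the lowest value of the 8 mice in 13 of 28 members (46.4%), beside 16.4% of all genes, and was below the mean of the mice in 27 (96.4%), beside 52.3% of all genes. Male 2 was lowest in 7 (25%), beside 18.1% of all genes, and below the mean in 25 (89.3%), beside 51.5%. Male 1 had the highest value in 10 members (35.7%), more than any other mouse, beside 12.1% of all genes, and was below the mean in 5 (17.9%), beside 52.9%. The microglial sum was 2102 CPM in male 2 and 2087 CPM in male 4, the highest of all, and 438 CPM in male 1; the neuronal sum was 2069, 2167 and 2631 CPM. Of the females, female 4 was highest in 8 members (28.6%, beside 13.1% of all genes) and female 2 in 5 (17.9%, beside 10.5%). With males 2 and 4 left out, a choice made after the data were seen, the median log2 fold change of the members was 0.03 with 15 of 28 higher in females, and *Usp29*, *Mest*, *Magel2* and *Blcap* had 0.22, 0.34, 0.17 and 0.08. The part of the marker levels in the members' order was not tested beyond these fits.

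**Figure D4:**
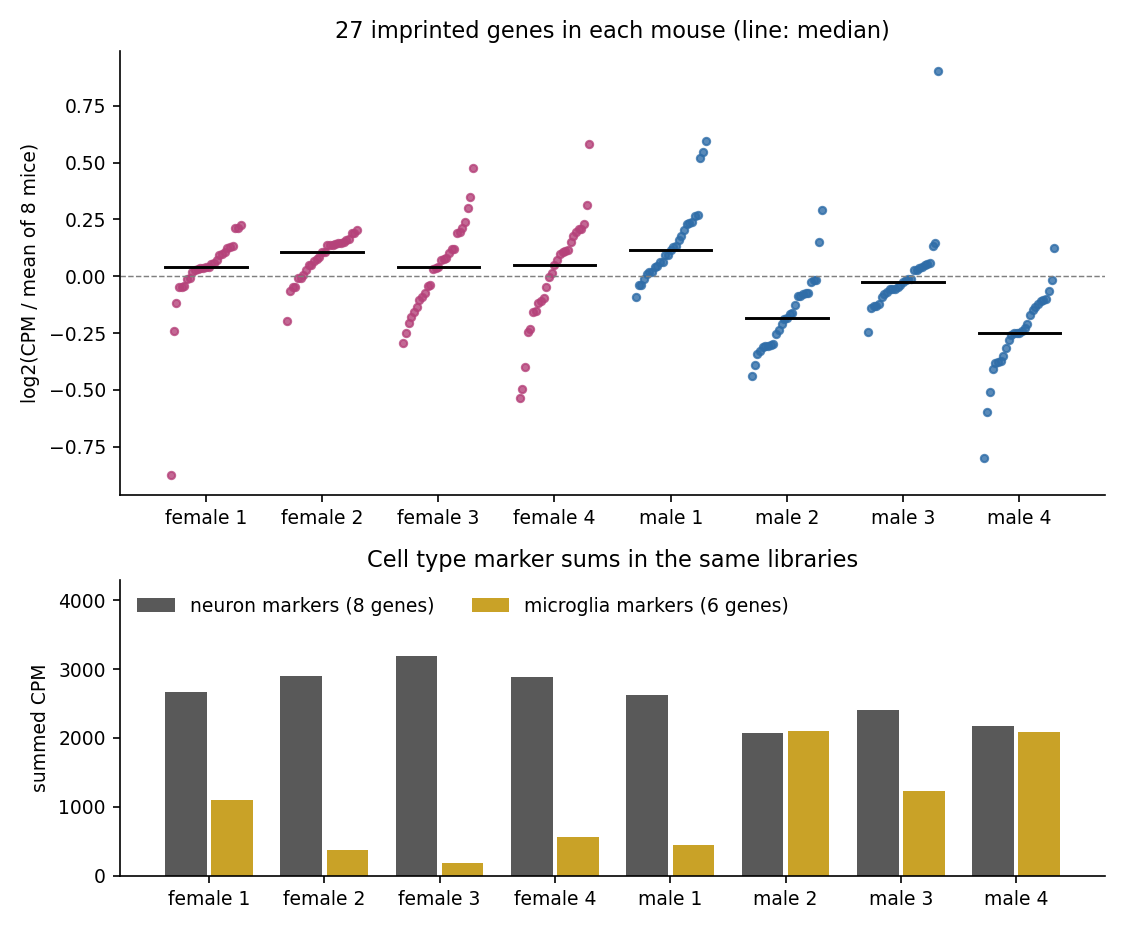
Top, log2 of each gene's CPM over its mean of the 8 mice, for the 27 tested members other than *Igf2*, by mouse, with the median as a line; bottom, summed CPM of the neuronal and the microglial markers in the same libraries. Males 2 and 4 had medians of -0.18 and -0.25 and the highest microglial sums, and male 1 had a median of 0.12.

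The members varied little from mouse to mouse. Their median coefficient of variation in CPM over the 8 mice was 13.2%, beside 19.5% over all genes tested. The median level was 125 CPM over the members and 19.8 CPM over all genes tested, and the part of this gap in the spread was not tested. The steadiest was *Trappc9*, a subunit of a trafficking complex, at 5.37%, and among well-counted members *Asb4* (26.5%) and *Mest* (24.6%) varied most.

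Ratios of neighbors within a library do not depend on its depth, and 7 of 17 listed pairs could be used. Of the 10 pairs left out, *Snrpn*/*Snurf* had too few counts of *Snurf*. Every other pair left out held a noncoding member that was not analysed here, so that its level is not known. Each ratio here is the log2 of estimated counts of the first gene over the second. The sexes overlapped in all 7, that is, 0 were apart, and in the exact test none came below p = 0.0857. The 2 largest differences were in *Ndn*/*Magel2*, with 1.75 ± 0.23 (SD, n = 4) in females and 2.15 ± 0.25 in males (exact permutation p = 0.0857, adjusted p = 0.30), and in *Sgce*/*Peg10*, with -5.57 ± 0.23 and -5.18 ± 0.25 (the same p values). *Sgce* and *Peg10* start 99 bases apart in opposite directions. By mouse, *Sgce*/*Peg10* was -5.33, -5.44, -5.63 and -5.86 in females and -5.48, -5.03, -5.28 and -4.93 in males. Males 2 and 4 were highest, and male 1 lay among the females. The others, *Peg3*/*Usp29* (2.75 over all mice), *Peg3*/*Zim1* (4.40), *Nnat*/*Blcap* (0.64), *Mest*/*Copg2* (-0.46) and *Zrsr1*/*Commd1* (3.42), differed between the sexes by 0.19 or less.

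Several imprinted genes use more than 1 promoter, and the parental copy can depend on it. Transcripts whose annotated 5′ ends lay within 500 bases of each other were taken as 1 start group, numbered from the 5′ end of the gene, and a group's share is its percent of the gene's estimated counts. These shares are the assignment of reads among overlapping models by the authors' software. In 7 of 16 genes looked at, at least 2 groups held 5% or more, which gave 20 groups. In 1 of the 20 the sexes did not overlap.

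In *Gnas*, the start group at chr2:174330006-174330287 held 78.6% of the counts on average (75.7% to 81.3%) and the group at chr2:174327570-174328023 just before it held 18.1% (14.9% to 21.6%). The 3 groups farther upstream, where the promoters of the NESP55 and XL alpha s products of this gene are known to lie, held 2.27%, 0.03% and 0.97%. Together these 3 were at 2.62% ± 0.76 (SD, n = 4) in females and 3.91% ± 0.54 in males (exact permutation p = 0.0571), a sum formed after the values were seen. In *Snrpn* the 2 start groups shared the counts nearly evenly: the upstream start at chr7:60140219 on the minus strand held 51.0% (44.6% to 56.3%) and the start at chr7:60005111 held 49.0%. In *Mest* the group at chr6:30738050-30738055 held 86.1%, and in *Trappc9* the shares were 53.0% and 47.0%. None of these differed between the sexes beyond the overlap of their values.

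*Inpp5f*, an inositol phosphatase gene with a paternally expressed variant in brain, had the group that did not overlap. Its group 5, the single retained-intron model Inpp5f-206, held 11.6%, 21.7%, 27.5% and 32.5% of the counts in females and 36.4%, 38.9%, 33.4% and 49.98% in males (exact permutation p = 0.0286, adjusted p = 0.317 over the 20 groups). Group 6, the coding model Inpp5f-208 that starts farther on, held 27.9%, 30.1%, 17.1% and 17.5% in females and 4.87%, 7.77%, 22.5% and 4.87% in males. Groups 5 and 6 added up to 46.5% ± 5.56 (SD, n = 4) in females and 49.7% ± 6.96 in males (exact permutation p = 0.486), a sum chosen after the values were seen. The full-length start group held 35.5% on average, with 28.4% to 45.3%.

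*Grb10* showed a similar trade between 2 long models. Its group 2 (Grb10-201) held 46.1%, 47.3%, 41.3% and 61.3% in females and 29.5%, 60.6%, 57.5% and 9.59% in males, while group 3 (Grb10-203) held 20.4%, 14.7%, 22.4% and 3.44% in females and 29.6%, 3.88%, 2.91% and 46.0% in males. Where one was high the other was low. Their sum was 64.2% ± 1.87 (SD, n = 4) in females and 59.9% ± 3.69 in males (exact permutation p = 0.0857), also formed after the values were seen.

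**Figure D5:**
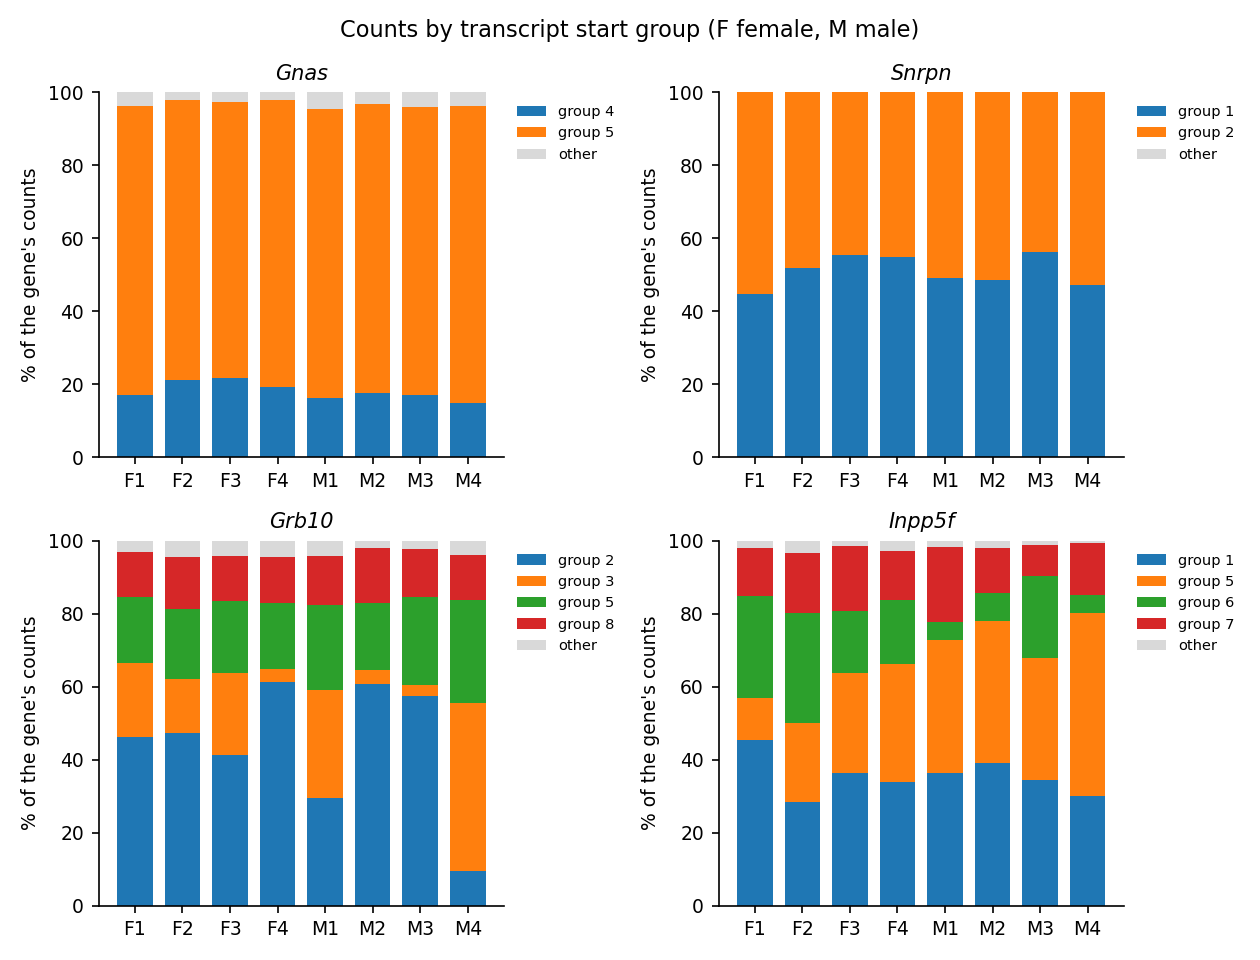
Percent of each gene's estimated counts by transcript start group in each mouse (F female, M male), for *Gnas*, *Snrpn*, *Grb10* and *Inpp5f*, with groups under 5% as other. *Gnas* and *Snrpn* varied little between mice, while groups 2 and 3 of *Grb10* and groups 5 and 6 of *Inpp5f* traded places.

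The start regions were described from RefSeq windows of 250 bases upstream, which were found for 32 of the 39 members, 26 of them analysed. For each gene the window nearest to the start of its most counted transcript was used, or, for a member not analysed here, nearest to the start of its annotated gene. In 5 of the 32 this window lay more than 500 bases away, namely in *Snhg14* (474418 bases), *Mirg* (5217), *Ndn* (1708), *Zrsr1* (1223) and *Dlk1* (832 bases), so that it describes another start than that of the transcript or gene model. The ratio of observed to expected CpG was over 0.6 in 15 of the 26 members analysed (57.7%), beside 46.2% of 16902 genes with both a window and deposited values. Among windows within 500 bases it was over 0.6 in 15 of 23 members (65.2%), beside 51.1% of 14138 genes. The word TGCCGC, the core that the imprint-keeping protein ZFP57 binds when it is methylated, was searched on both strands. It was in 5 of the 26 windows (19.2%), beside 10.3%, and in 5 of the 23 within 500 bases (21.7%), beside 11.1%. The members analysed with it were *Zim1*, *Mest*, *Copg2*, *Nap1l5* and *Plagl1*. Each copy of the word contains a CpG, so that both counts overlap, and the matches are descriptions of these windows and not of binding.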

How the data were processed

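RNA of sorted tdTomato-positive TN SST neurons was sequenced as 1 single-end library per mouse, made with a stranded total RNA kit. For reads placed on the mm10 transcriptome by kallisto 0.46.2, the authors deposited estimated counts per transcript, which need not be whole and are not normalized, and TPM. The deposited values of a mouse list 118489 transcripts in 2 blocks, with separate counts and separate TPM that sum to 1000000 per block. Counts were added over the blocks. TPM was added over the transcripts of a gene and averaged between blocks, since a single TPM per transcript had been assumed. Whether the counting used strand was not given in the sources used here. The submitters' processing notes also name DESeq2 2.11.40.6.

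By transcript ID, 116728 transcripts were joined to genes of GENCODE release M21, and the 1761 others, holding 0.429% to 0.611% of the counts in a library, were not used. Counts per gene were rounded. The sexes (4 mice each) were compared across all genes with the quasi-likelihood test of edgeR 4.0.16 (limma 3.58.1, R 4.3.3; TMM scaling, filterByExpr with the sexes as groups, no term besides sex, Benjamini-Hochberg adjusted p under 0.05). All adjusted p values of genes are from that test unless DESeq2 1.42.0, the alternative, is named. Intervals of fold changes used the SE and a t distribution with 6 degrees of freedom and are approximate. Pairs needed 10 counts in both genes in all but 2 mice, with 0.5 added to each count, and start groups a gene with at least 50 counts in every mouse. Their 2-sided exact permutation tests cannot go below 0.0286 with 4 mice against 4. Python 3.11.15 and scipy 1.17.1 were used. Shared stretches are the 31-base words of a member's most counted transcript that also occur in transcripts of other genes.

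The members, their loci and parental copies, the marker lists and the related lists were chosen with earlier results of these data known. Values in every mouse were given for members that were called or whose sexes did not overlap and for the 8 with the highest mean TPM; the others were given by mean, range or count. Of the related lists only genes without overlap and the 3 with the highest TPM were named. The alternatives were DESeq2, another normalization, no filter and a filter of 10 counts in 4 mice, a replicate block, each block of values alone, leaving out *Lars2*, a neuronal or microglial list mean as covariate, and leaving out each mouse. Added after seeing the data were the counts of overlapping genes, leaving out males 2 and 4, and summed start groups.

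Same-numbered mice of both sexes did not deviate together (correlations -0.40, -0.16, 0.04 and 0.07). The test was tried on simulated counts for the 15194 genes of this comparison, of which 200 were changed: it recovered 49 of 100 changed 2-fold and 81 of 100 changed 4-fold, and called 7 unchanged genes. Limits of detection cover counting error only.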

Additional observations from a re-analysis of the deposited data

Results flagged for a closer look

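In 7 of 110 groups of 4 mice examined, over the members' CPM, ratios and start shares, 1 mouse stood apart from the other 3 by a gap that took most of the group's range. Chance flags about 1 in 20 groups (5%). In females, *Plagl1* was at 206 CPM in female 1, with a gap of 0.875 of the range, *Trappc9* was lowest in female 3 at 68.5 CPM (0.942), and the *Peg3*/*Usp29* log2 ratio was lowest in female 3 at 2.49 (0.953). In males, *Zim1* was at 108 CPM in male 1 (0.858). Among start shares, *Gnas* group 5 was highest in male 4 at 81.3% (0.831), *Grb10* group 8 in female 2 at 14.4% (0.879), and *Inpp5f* group 6 in male 3 at 22.5% (0.835). Female 3 had the deepest library, at 17648108 counts.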

How the results depend on the processing

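Over all 15194 genes tested the count of sex differences was 24, and it moved to 1013 with DESeq2, to 3 and 13 with the neuronal and the microglial list mean as covariate, to 5 with males 2 and 4 left out, and to between 8 and 415 when single mice were left out, with 8 without male 3, 411 without male 1 and 415 without female 1. Same-numbered mice share only a number, and the replicate block gave 1 gene and no member. Of the 28 members, 0 were called, 2 with DESeq2 and 0 to 1 without single mice, the 1 being *Usp29* without male 1; every other alternative gave 0. The 3 member results past the threshold were *Usp29* with DESeq2 (0.37), *Usp29* without male 1 (0.45) and *Mest* with DESeq2 (0.50, all log2). Over 20 alternatives the median of the members ran from -0.08 to 0.19 and that of all genes stayed within 0.02 of 0; 13 members kept their sign and 15 did not, among them *Peg3*, *Gnas*, *Dlk1* and *Ndn*. Of within-locus ratios, 0 were without overlap, 1 in the second block of each file (*Sgce*/*Peg10*, p = 0.0286, exact permutation) and 0 to 1 without single mice. Of start shares, 1 was without overlap and 1 to 3 without single mice. The *Inpp5f* group 5 difference had p = 0.229 (exact permutation) in the first block of values alone, where *Grb10* group 5 was apart instead (p = 0.0286, exact permutation). The cause of these changes was not tested. Depth limits *Cdkn1c*, *Igf2* and the 3 members below the filter.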

Other observations

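Other imprinted genes, a list of 36 besides the members, had 29 genes tested, of which 16 were higher and 13 lower in females; the median was 0.07 on the log2 scale and edgeR called 0 (13 at an unadjusted p under 0.05, or 44.8%, beside 20.5% of all genes). DESeq2 called 3 of 27 with an adjusted p, *Herc3*, *Htr2a* and *Dcn* (11.1%, beside 7.35% of all genes). The most abundant were *Cd81*, a tetraspanin (635 TPM), *Rasgrf1*, a Ras exchange factor (277 TPM), and *Ppp1r9a*, an actin-binding scaffold (185 TPM). The sexes did not overlap in 4 of the 29 (13.8%, beside 10.4% of all genes), *Herc3*, *Htr2a*, *Pon2* and *Dcn*. *Herc3*, which holds *Nap1l5* in an intron, was at 105 to 118 CPM in females and 77.2 to 103 CPM in males, a log2 fold change of 0.34 ± 0.10 (SE; adjusted p = 0.130 in edgeR), while *Nap1l5* had -0.08 ± 0.11. *Htr2a*, the serotonin 2A receptor, was at 22.0 to 32.5 CPM in females and 9.99 to 17.8 CPM in males (0.92 ± 0.20; adjusted p = 0.0797). *Pon2*, a paraoxonase, was at 7.20 to 11.1 and 11.6 to 16.1 CPM (-0.62 ± 0.18; adjusted p = 0.130). *Dcn*, decorin, which is also a marker of fibroblasts, was at 0 to 1.48 and 1.76 to 12.6 CPM.

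Genes of the machinery that keeps imprints had mean levels from 0.0443 to 160 TPM, and those named below are the 3 highest. Of 22 genes, 20 were tested, 14 were higher in females, the median was 0.07 and 0 were called (2 at an unadjusted p under 0.05, or 10%). *Trim28*, the corepressor that zinc finger proteins bring to methylated control regions, was at 160 TPM, the histone methyltransferase gene *Ehmt2* at 90.6 TPM and the maintenance methyltransferase gene *Dnmt1* at 85.2 TPM. A list of 11 genes for MAGEL2 partners and for the retromer and WASH complexes was tested in full. Of these 11, 3 were higher in females, the median was -0.05 and 0 were called (1 at an unadjusted p under 0.05, or 9.09%). *Maged1*, a MAGE protein itself, led at 718 TPM, followed by the deubiquitinase gene *Usp7* at 130 TPM and *Vps29* of the retromer at 118 TPM. *Washc2*, a WASH complex subunit, was at 114 to 130.2 CPM in females and 130.4 to 148 CPM in males (-0.18 ± 0.08; adjusted p = 0.228). Of 12 genes of the growth factor pathway of *Igf2*, *Igf2r* and *Grb10*, 9 were tested, 4 were higher in females, the median was -0.05 and 0 were called (1 at an unadjusted p under 0.05, or 11.1%). *Igfbp3*, a binding protein of these factors, was at 9.90 to 14.6 CPM in females and 5.09 to 9.07 CPM in males (0.71 ± 0.22; adjusted p = 0.146). The sexes did not overlap in 0 of 20, 1 of 11 (9.09%) and 1 of 9 genes (11.1%) of the last 3 lists, *Washc2* and *Igfbp3*. DESeq2 also called 0 in these 3 lists, and all lists were described by counts only.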
